A study of Mus musculus with 4 samples.

Results

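The colony stimulating factors and a set of macrophage genes were measured in basal cells sorted from the mammary glands of mice on a soy diet and on a casein diet. The set held 10 genes, Csf1, Csf2, Csf3, Csf1r, Adgre1, Cd68, Mrc1, Ncf4, Cybb and Ptprc. Its members were all probe sets that the platform annotation assigns to exactly 1 gene with one of these symbols, which gave 18 of the 45037 non-control probe sets on the array. All 10 genes had at least 1 probe set. Csf1 had 4, Csf1r and Cybb had 3 each, Ptprc had 2, and the other genes had 1 each.

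Gene expression was measured on 4 Affymetrix arrays, 2 for a control diet with casein (CAS) and 2 for a diet with soy protein isolate (SPI). All the mice, controls included, were on the mixed background B66SJL/HEV/J and carried the MMTV-Wnt1 transgene, in which the promoter of the mouse mammary tumor virus drives the Wnt1 ligand in the mammary gland. The sorted Basal population was labelled as holding stem cells, myoepithelial cells and their progenitors, and RNA was extracted from freshly sorted cells. The labels give no age, and they do not tell whether arrays that share a diet stand for different mice, so the p-values rest on a spread that may be no more than technical. The comparison asks whether diet altered cytokine and chemokine transcripts in these cells, as the series title puts it.

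The deposited values are log2 values centred on the median of the 4 arrays for each probe set. They hold differences between arrays and no levels, and the middle pair of values of a probe set is the same number with opposite signs. A coarse level could still be read from the step size left in the digits, which puts a probe set in a class of 2 to 4, 4 to 8 or 8 to 16 on the log2 scale. A probe set can appear in too high a class by chance, and the lowest array sets the class. Of 101 ribosomal protein probe sets 68 were in the class 8 to 16 and 19 in the class 4 to 8. Of 44 olfactory receptor probe sets 30 were in the class 2 to 4 and 8 were at 4 or above, so a level of 4 does not establish expression. Among the basal and myoepithelial markers 53 of 63 probe sets were at level 4 or above, and among 73 probe sets of macrophage markers outside the set 43 were, which compares with 28224 of all 45037.

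Colony stimulating factors are secreted proteins that drive the survival, growth and maturation of myeloid cells. Csf1 (M-CSF) acts through the receptor tyrosine kinase Csf1r on monocytes and macrophages, Csf2 (GM-CSF) acts on granulocytes and macrophages through a receptor that shares its beta chain with those of interleukin-3 and interleukin-5, and Csf3 (G-CSF) drives neutrophil production. Macrophages recruited by Csf1 are known to take part in branching of the mammary ducts, and epithelial cells are among the sources of the factor. Adgre1, Cd68 and Mrc1 (CD206) are markers of macrophages, Cybb and Ncf4 are parts of the phagocyte NADPH oxidase, and Ptprc (CD45) marks all leukocytes.

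At the level of single probe sets none of the 18 passed the test of SPI against CAS (limma with Benjamini-Hochberg adjustment over 45037 probe sets, adjusted p under 0.05), where 1.5% of all probe sets passed. Csf3 and Ncf4 came closest, Csf3 1.44-fold lower in SPI and Ncf4 1.55-fold higher. With 1 value per gene, adjusted over 18193 genes, both passed. The 6 ligand probe sets were all lower in SPI and 10 of the 12 probe sets of the receptor, macrophage, oxidase and leukocyte genes were higher, numbers that became 3 and 11 when the arrays were centred on hybridization controls. The 6 ligand probe sets came from 3 genes, and of all 45037 probe sets 19737 were below 0 and 25290 above. At an unadjusted p under 0.05 there were 7 of 18, against 17.8% of all probe sets, with 3 lower, each a ligand (8.35% of all probe sets), and 4 higher (9.43% of all). The ordinary t statistic gave 3 of 18 at that level, against 13.5% of all. The members were chosen with earlier results of these data known, and several read the same gene. These counts therefore do not test the set against the background. The arrays of the diets did not overlap in 9 of 18 probe sets, against 48.4% of all, which is close to the background. Of these, 4 were higher in SPI (27.9% of all probe sets) and 5 were lower (20.5% of all).

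**Figure D1:**
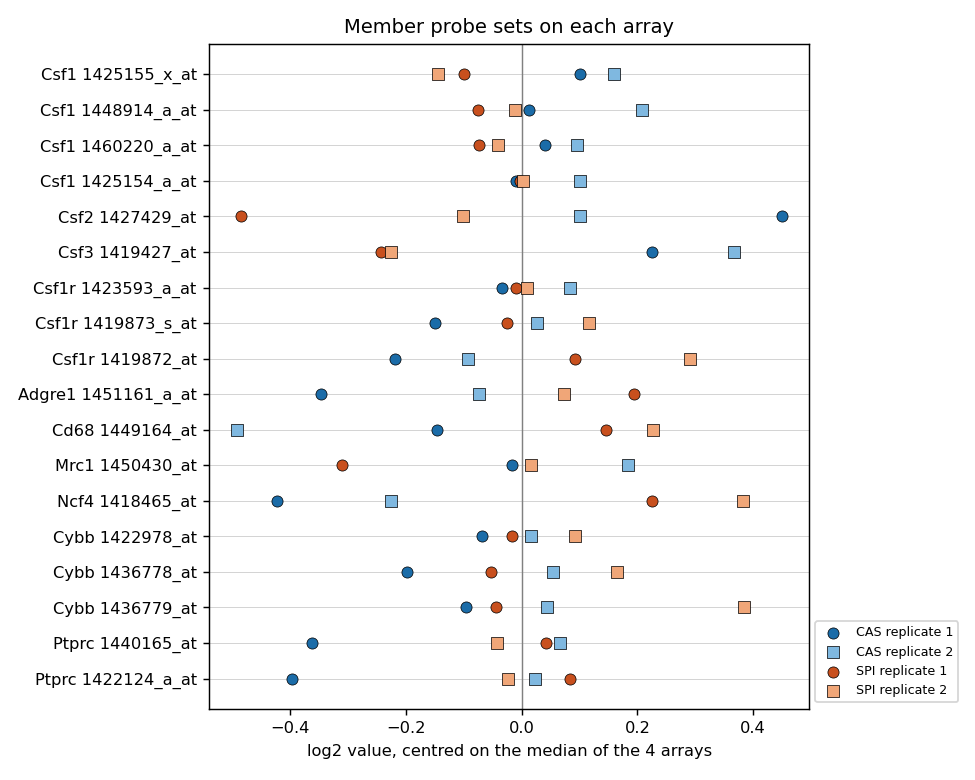
Deposited log2 values (horizontal axis, centred per probe set) of the 18 probe sets (rows) on each of the 4 arrays, circles for replicate 1 and squares for replicate 2, blue for CAS and orange for SPI. For Csf3 the SPI arrays lie at -0.24 and -0.23 and the CAS arrays at 0.23 and 0.37. For Ncf4 the order of the diets is the opposite, and for Ptprc CAS replicate 1 lies apart from the other 3 arrays.

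Csf3, the ligand that drives neutrophil production, was read by a single probe set (1419427_at) in the level class 8 to 16. Its centred log2 values were 0.23 and 0.37 in CAS and -0.24 and -0.23 in SPI. Both CAS arrays were above both SPI arrays, and the arrays of a diet differed by 0.14 in CAS and 0.017 in SPI. The log2 difference was -0.53 (limma adjusted p = 0.066, 95% interval -0.75 to -0.31, 2 arrays for each diet), a level 1.44-fold lower in SPI (interval 1.24 to 1.68). With 1 value per gene the same difference passed with a limma adjusted p of 0.0259 for the mean over a gene's probe sets, where 3.09% of genes were called lower, and of 0.0343 for the highest level class, where 2.94% were. Among the probe sets at level 4 or above, of which 5.06% passed in either direction, Csf3 and Ncf4 also passed (limma adjusted p of 0.0288 and 0.036). The value of Csf3 ran from -0.60 to -0.46 when 1 array was left out, with no probe set of the whole array passing in those fits.

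Csf2, the ligand for granulocytes and macrophages, had a single probe set (1427429_at) in the class 2 to 4, the class of most olfactory receptor probe sets. Its values were 0.45 and 0.10 in CAS and -0.48 and -0.10 in SPI. The arrays of a diet lay apart by 0.35 in CAS and 0.38 in SPI. The log2 difference of -0.57 (95% interval -1.02 to -0.12) did not pass (limma adjusted p = 0.207). It ranged from -0.76 to -0.38 when 1 array was left out, smallest in size without SPI replicate 1.

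Csf1, the macrophage growth factor, was read by 4 probe sets, 3 of them in the class 8 to 16. Its probe set 1425155_x_at, of a type that can also bind related transcripts, was at 0.10 and 0.16 in CAS and at -0.10 and -0.14 in SPI. This was the largest of its differences, -0.25 (95% interval -0.45 to -0.059, limma adjusted p = 0.196). The probe set 1448914_a_at, in the class 4 to 8, was at 0.012 and 0.21 in CAS and -0.075 and -0.012 in SPI, a difference of -0.15 that was -0.056 without CAS replicate 2. The probe set 1460220_a_at was at 0.041 and 0.096 in CAS and -0.074 and -0.041 in SPI, a difference of -0.13. For these 3 the diets did not overlap. The probe set 1425154_a_at was at -0.0095 and 0.10 in CAS and at -0.0029 and 0.0029 in SPI, with overlapping diets and a difference of -0.046. None passed (limma adjusted p from 0.196 to 0.819), and the mean of the 4 was -0.14 (95% interval -0.32 to 0.031). The last 3 became positive, at 0.018, 0.046 and 0.13, once the arrays were centred on hybridization controls, so their sign depends on the scaling.

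The members' start regions are shown for a ligand pair and, further on, for 2 macrophage genes, from RefSeq (GRCm38.p6), as the 170 bases before the start, 5′ to 3′ on the gene's strand. The windows searched held 300 bases, 250 before and 50 after the start. They were used for 6 of the 10 genes, Csf1, Csf2, Cd68, Mrc1, Cybb and Ptprc. No window of Csf1r, Csf3, Adgre1 or Ncf4 was searched. Short patterns were searched on both strands, and capitals mark their matches. The NF-kappaB-like pattern was GGG and CC with any 5 bases between them, which 50.8% of 32851 windows of the same length held. The interferon-response-like pattern was GAAA repeated after any 2 bases, held by 3.44% of windows. The PU.1-like pattern was GAGGAA, held by 28.3%. The AP-1-like pattern was TGANTCA, held by 7.81%. A match is a string of letters and not a shown binding site.
Csf1 promoter (chr3:107760470-107760639, strand minus): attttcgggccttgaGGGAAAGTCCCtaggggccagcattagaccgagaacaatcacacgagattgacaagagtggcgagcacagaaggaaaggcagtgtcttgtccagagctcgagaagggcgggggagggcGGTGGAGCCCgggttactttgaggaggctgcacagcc
Csf2 promoter (chr11:54249900-54250069, strand minus): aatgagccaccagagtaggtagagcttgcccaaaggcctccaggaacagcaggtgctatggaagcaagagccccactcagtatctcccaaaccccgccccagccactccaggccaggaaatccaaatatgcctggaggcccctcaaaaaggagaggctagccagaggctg
The Csf1 stretch held the NF-kappaB-like letters at GGGAAAGTCC, which overlaps a match on the other strand shifted by 1 base, and at GGTGGAGCCC, on the other strand. In the Csf2 stretch none of the 4 patterns matched, and its window held 1 NF-kappaB-like match after the start. The NF-kappaB-like pattern is loose and is found in about as many windows as not.

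Csf1r, the receptor of Csf1, had 3 probe sets, all in the class 4 to 8, and they differed among themselves. The probe set 1419872_at was at -0.22 and -0.092 in CAS and at 0.092 and 0.29 in SPI, with no overlap. Its log2 difference was 0.35 (95% interval 0.084 to 0.61, limma adjusted p = 0.194). The probe set 1419873_s_at, of a type shared by several transcripts, was at -0.15 and 0.026 in CAS and -0.026 and 0.12 in SPI, a difference of 0.11 with overlapping diets that was 0.019 without CAS replicate 1. The probe set 1423593_a_at was at -0.035 and 0.084 in CAS and -0.010 and 0.010 in SPI, a difference of -0.025 that also overlapped. As 1 value per gene Csf1r was at 0.14 (95% interval -0.067 to 0.35, limma adjusted p = 0.399).

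Of the macrophage markers, Cd68, a glycoprotein of lysosomes, had the largest difference. Its probe set (1449164_at, class 4 to 8) was at -0.15 and -0.49 in CAS and at 0.15 and 0.23 in SPI. Both SPI arrays were above both CAS arrays, and CAS replicate 2 was the lowest. The log2 difference was 0.51 (95% interval 0.17 to 0.84), 1.42-fold higher in SPI, and did not pass (limma adjusted p = 0.163). Without CAS replicate 2 it was 0.33. Adgre1, an adhesion receptor on the macrophage surface (1451161_a_at, class 4 to 8), was at -0.35 and -0.073 in CAS and at 0.19 and 0.073 in SPI. The diets did not overlap, and the difference of 0.34 (95% interval 0.042 to 0.65) did not pass (limma adjusted p = 0.236). Without CAS replicate 1 it was 0.21, and leaving out each array in turn gave 0.21 to 0.48. Mrc1, the mannose receptor of many tissue macrophages (1450430_at), was in the class 2 to 4. Its values were -0.016 and 0.18 in CAS and -0.31 and 0.016 in SPI, so the diets overlapped. The difference was -0.23 (95% interval -0.59 to 0.13, limma adjusted p = 0.453), and it was -0.068 without SPI replicate 1 and -0.39 without SPI replicate 2.

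Ncf4 and Cybb belong to the oxidase with which phagocytes make superoxide. Ncf4 (p40phox), a cytosolic subunit (1418465_at, class 4 to 8), was at -0.42 and -0.23 in CAS and at 0.23 and 0.38 in SPI. Both SPI arrays were above both CAS arrays, with 0.20 between the CAS arrays and 0.16 between the SPI arrays. The log2 difference of 0.63 (95% interval 0.36 to 0.90), 1.55-fold higher in SPI (interval 1.28 to 1.87), gave a limma adjusted p of 0.0748. As 1 value per gene Ncf4 passed, with a limma adjusted p of 0.034 for the mean over a gene's probe sets (0.901% of genes were called higher) and of 0.0436 for the highest level class (0.792% were). Leaving out 1 array moved the value between 0.53 and 0.73, with no call.

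Cybb (gp91phox), the catalytic subunit of the same complex in the membrane, showed smaller differences. Its probe set 1422978_at was at -0.069 and 0.017 in CAS and -0.017 and 0.093 in SPI, a difference of 0.064. The probe set 1436778_at was at -0.20 and 0.054 in CAS and -0.054 and 0.17 in SPI, a difference of 0.13. The probe set 1436779_at, in the class 2 to 4, was at -0.097 and 0.044 in CAS and -0.044 and 0.38 in SPI, a difference of 0.20. In all 3 the diets overlapped, CAS replicate 1 was the lowest array and SPI replicate 2 the highest, and none passed (limma adjusted p from 0.578 to 0.749). Leaving out each array in turn gave 0.0093 to 0.12 for 1422978_at, lowest without SPI replicate 2, and 0.0021 to 0.25 for 1436778_at, lowest without CAS replicate 1. For 1436779_at it gave -0.018 to 0.41, lowest without SPI replicate 2. The mean of the 3 was 0.13 (95% interval -0.15 to 0.40), an interval that overlaps that of the Ncf4 probe set, 0.36 to 0.90. The difference between Ncf4 and Cybb was not tested.

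The start regions of Cd68 and Cybb follow, with capitals for the same patterns. The Cybb stretch lies inside the annotated span of the gene (chrX:9435252-9487766), so its start is not the outermost one.
Cd68 promoter (chr11:69666171-69666340, strand minus): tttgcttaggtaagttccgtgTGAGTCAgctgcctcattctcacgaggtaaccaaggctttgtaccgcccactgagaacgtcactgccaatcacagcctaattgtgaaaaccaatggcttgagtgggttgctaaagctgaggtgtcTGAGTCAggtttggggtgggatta
Cybb promoter (chrX:9469325-9469494, strand minus): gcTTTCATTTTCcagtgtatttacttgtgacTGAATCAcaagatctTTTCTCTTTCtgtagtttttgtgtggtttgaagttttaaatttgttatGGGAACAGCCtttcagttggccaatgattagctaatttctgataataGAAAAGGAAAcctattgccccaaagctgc
The Cd68 stretch held TGAGTCA at each of 2 places, letters of the AP-1-like pattern that 7.81% of windows have at least once. The Cybb stretch held the interferon-response-like letters at 3 places, TTTCATTTTC, TTTCTCTTTC and GAAAAGGAAA, where 3.44% of all windows have any, and also TGAATCA and GGGAACAGCC. No PU.1-like match lay within either stretch, but outside the stretches the Cd68 window held 2 and the Cybb window 1. Of all windows 28.3% held this pattern.

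Ptprc (CD45), the phosphatase on the surface of leukocytes, was set apart by 1 array. Its probe set 1422124_a_at (class 8 to 16) was at -0.40 and 0.023 in CAS and at 0.084 and -0.023 in SPI. The probe set 1440165_at (class 2 to 4) was at -0.36 and 0.066 in CAS and at 0.042 and -0.042 in SPI. In both, CAS replicate 1 was low while CAS replicate 2 lay within 0.11 of both SPI arrays. The differences were 0.22 (95% interval -0.17 to 0.61) and 0.15 (95% interval -0.25 to 0.54), and without CAS replicate 1 they were 0.0080 and -0.066.

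**Figure D2:**
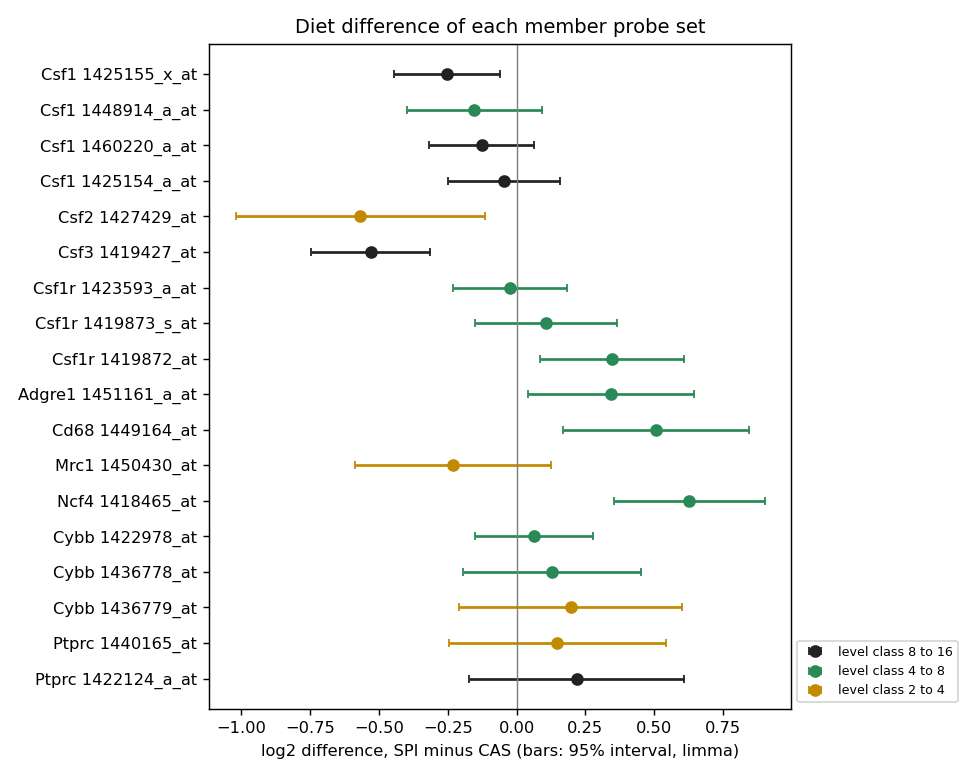
Log2 difference, SPI minus CAS (horizontal axis), of each of the 18 probe sets (rows), with bars for the 95% interval of the limma fit and colours for the level class. The 3 intervals below 0 belong to Csf2, Csf3 and the Csf1 probe set 1425155_x_at, and the 4 above 0 to Ncf4, Cd68, Adgre1 and the Csf1r probe set 1419872_at.

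CAS replicate 1 held the lowest of the 4 values in 10 of the 12 probe sets of Csf1r, Adgre1, Cd68, Mrc1, Ncf4, Cybb and Ptprc. Over all non-control probe sets it was the lowest in 27.4%. Csf1r and Cybb gave 3 of the 10 each and Ptprc 2, so the 12 do not count as separate genes. The median of the 12 was -0.17 on CAS replicate 1, 0.024 on CAS replicate 2, 0.016 on SPI replicate 1 and 0.10 on SPI replicate 2. By these medians the CAS arrays lay further apart than either SPI array did from CAS replicate 2. Among 73 probe sets of macrophage markers outside the set, CAS replicate 1 was the lowest in 26, or 35.6%, and it was the lowest in 17 of 33 probe sets of T and NK cell markers and in 32 of 63 of basal and myoepithelial markers. In the 6 ligand probe sets SPI replicate 1 was the lowest in 4, and CAS replicate 1 in 1.

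**Figure D3:**
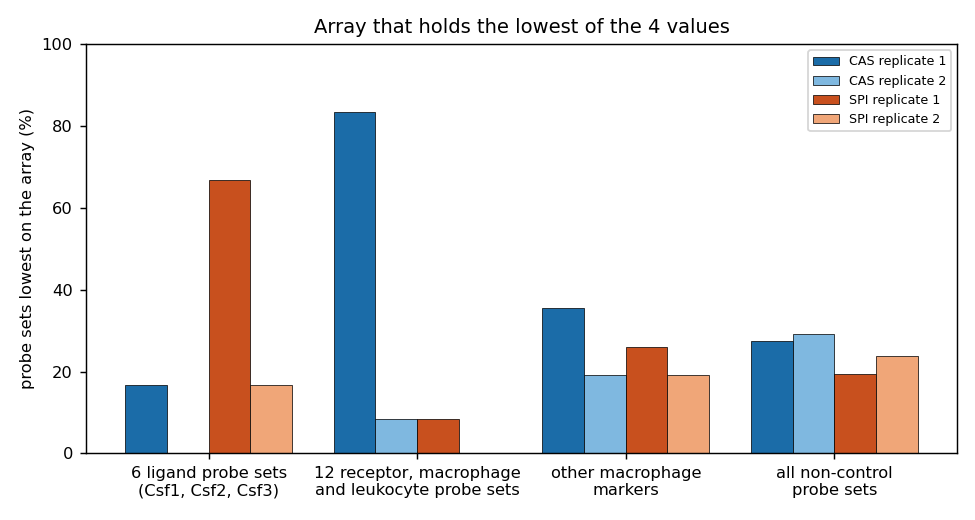
Share of probe sets (vertical axis, percent) whose lowest value lay on each of the 4 arrays, for the 6 ligand probe sets, the 12 receptor, macrophage and leukocyte probe sets, 73 probe sets of other macrophage markers and all 45037. CAS replicate 1 holds the lowest value in 83.3% of the 12, in 35.6% of the other macrophage markers and in 27.4% of all probe sets. Several of the 12 read the same gene.

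Among the receptors and ligands around the colony stimulating factors, 12 of 14 listed genes were measured by 18 probe sets, of which 1 passed, lower in SPI, where 1.25% of all probe sets did. It was a probe set of Kit (1452514_a_at), the receptor of stem cell factor, a relative of Csf1r that luminal progenitors and mast cells also express, and it fell 2.18-fold (limma adjusted p = 0.0331). The other Kit probe set was at -0.92 (adjusted p = 0.186), and the 4 probe sets of its ligand Kitl were between 0.052 and 0.15. Csf2rb, the shared beta chain of the Csf2 receptor, and Csf2rb2, its copy in the mouse that serves interleukin-3, were lower without passing. Csf2rb2 was at 0.37 and 0.25 in CAS and -0.40 and -0.25 in SPI, a difference of -0.64 (adjusted p = 0.0541). The first Csf2rb probe set (1455660_at) was at -0.65 (adjusted p = 0.117), and the second (1421326_at) was at -0.10. Csf2rb and Csf2rb2 are close copies, so their probe sets may read both.

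The alpha chain of the Csf2 receptor, Csf2ra, was at 0.12 and -0.075 in its 2 probe sets, with overlapping diets. The Csf3 receptor, Csf3r, in the class 2 to 4, was at 0.46 and 0.038 in CAS and -0.40 and -0.038 in SPI, a difference of -0.47 (limma adjusted p = 0.29). Il34, the other ligand of Csf1r, was at -0.0046 and showed overlapping diets. Il3 (0.085), Il3ra (-0.078), Il5 (-0.067), Il5ra (a difference under 0.01 in size) and Flt3 (0.078) did not pass. The median of these 18 probe sets was -0.036, against 0.023 over all probe sets. On the same arrays 4 of 13 probe sets of mast cell markers passed, all lower in SPI, where 1.25% of all probe sets did. The list medians were 0.21 and 0.14 in CAS and -0.14 and -0.062 in SPI. The part of mast cells in the values of Kit and the beta chains was not tested.

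None of 14 probe sets of the other oxidase genes passed, from 7 of 8 listed genes, and 3 had an unadjusted p under 0.05, against 17.8% of all probe sets. Cyba (p22phox), the membrane partner of Cybb, was at 0.097 and 0.26 in CAS and -0.097 and -0.44 in SPI, a difference of -0.44 (limma adjusted p = 0.205), opposite in sign to Ncf4. Ncf1 (p47phox), a cytosolic partner of Ncf4, gave 0.21, -0.064 and -0.011 in its 3 probe sets. The GTPase Rac2 gave 0.23 and -0.12, and Rac1 gave -0.061 in its probe set with the smallest p and less in size in the other 2. Rap1a gave 0.23 and -0.023, Hvcn1, a proton channel, 0.012, and Cybc1, a chaperone of Cybb, -0.020 and a value under 0.01. The median of the 14 was -0.0078. Among the NADPH oxidases outside the phagocyte complex none of 6 probe sets passed, from 5 of 9 listed genes, and 3 had an unadjusted p under 0.05. Duoxa1, the maturation factor of the dual oxidases, was at 0.47 and 0.35 in CAS and -0.35 and -0.76 in SPI, a difference of -0.97 (limma adjusted p = 0.0645) that was larger in size than that of Ncf4 and opposite in sign. Duox1, a dual oxidase that makes hydrogen peroxide in epithelia, was at -0.52 (adjusted p = 0.083). Noxo1, an organizer subunit that serves Nox1, was at 0.21 (adjusted p = 0.242). The median of the 6 was 0.0063.

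Genes that act downstream of the receptors did not pass either. Of 58 probe sets of receptor signalling genes none passed in limma, 9 had an unadjusted p under 0.05 (17.8% of all probe sets did), and the median was 0.031. The lowest p belonged to Plcg2, a phospholipase, at -0.52 (adjusted p = 0.0879), and to Pik3cd, a kinase of leukocytes, at 0.49 (adjusted p = 0.0975). Of 36 probe sets of myeloid transcription factors none passed, 10 were higher and 2 lower at an unadjusted p under 0.05, against 9.43% and 8.35% of all probe sets, and the median was 0.093. Their lowest p values were those of Id2 (0.51), Runx1 (0.30) and Ets2 (0.31), which are not confined to myeloid cells.

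Outside the set, 2 of 73 probe sets of macrophage markers passed, both lower in SPI, where 1.25% of all probe sets passed as lower. They were Fcgr2b, the inhibitory receptor for IgG (1435477_s_at, 3.13-fold lower, limma adjusted p = 0.00554), and Lgals3, a lectin that epithelial cells also make (2.24-fold lower, adjusted p = 0.0294). Which cells held the Fcgr2b and Lgals3 transcripts was not tested. At an unadjusted p under 0.05, 8 of the 73 were higher and 9 lower (9.43% and 8.35% of all probe sets). The median of the 73 was 0.061, with medians of -0.0035 and -0.020 in CAS and -0.025 and 0.043 in SPI. Of 47 probe sets of other pan-leukocyte genes none passed, 5 were higher and 5 lower at an unadjusted p under 0.05 (9.43% and 8.35% of all), and the median was 0.066. The classical macrophage activation list gave 2 falls in 17 probe sets, Il6 and Tnf, where 1.25% of all probe sets passed as lower. Which cells made these 2 transcripts was not tested. The alternative activation list gave none in 19, and 1 of them had an unadjusted p under 0.05 (17.8% of all). In sorted bulk RNA, fewer cells of a type and less RNA per cell cannot be told apart.

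**Figure D4:**
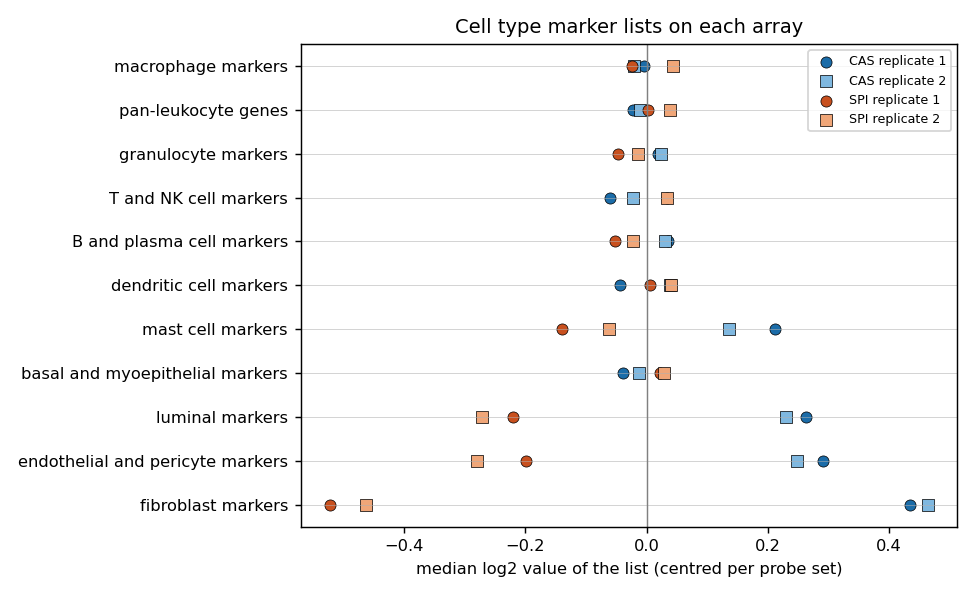
Median of the deposited log2 values of each marker list (rows) on each of the 4 arrays (horizontal axis, centred per probe set), circles for replicate 1 and squares for replicate 2, blue for CAS and orange for SPI. The macrophage, pan-leukocyte and lymphocyte lists lie within 0.10 of 0 on every array, while the fibroblast list is at 0.43 and 0.46 in CAS and at -0.52 and -0.46 in SPI.

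Larger shares passed among markers of some other cell types, where 1.25% of all probe sets passed as lower and 0.249% as higher. Of 67 fibroblast probe sets 41 passed, all lower in SPI, with a median of -0.95, as did 11 of 38 endothelial and pericyte probe sets (median -0.61) and 15 of 42 luminal ones (median -0.51). Of 63 basal and myoepithelial probe sets 4 passed, all higher, with a median of 0.082. Fibroblasts and endothelial cells are known sources of Csf1 and Csf3, and the part of these cells in the ligand values was not tested. Of 17 granulocyte probe sets 1 passed, lower (Ltf, also a milk protein), of 34 of B and plasma cells 5, all lower, and of 33 of T and NK cells and 23 of dendritic cells none, with 4 and 3 at an unadjusted p under 0.05 (17.8% of all).

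The scaling bears on the sign of small differences. The hybridization controls, transcripts added before hybridization, had a diet difference of -0.17. Once the arrays were centred on these controls, the median difference of all probe sets was 0.19 and 3290 passed, 2552 higher and 738 lower, where the deposited scale gave 676, 112 higher and 564 lower. On that scale Ncf4 (0.799), Cd68 (0.68), Adgre1 (0.52) and the Csf1r probe set 1419872_at (0.52) passed, with limma adjusted p from 0.0098 to 0.0434, where 5.67% of all probe sets were called higher. Csf3 was at -0.36 there and did not pass. This centring shifts every difference by the same amount, so it cannot change the order of the members.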

How the data were processed

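RNA of 4 samples was measured on Affymetrix arrays, 2 per diet, grouped by the sample titles. Per the submitters' processing notes GCOS and RMA were used; versions and genome build are not given in the sources used here. Deposited values are read as log2 by RMA. Each probe set had a median of 0 over the 4 arrays (largest deviation 5e-07), so the authors had also centred them, which no label records and which removes levels. Of 45101 probe sets 64 controls were left out; 34945 of the rest had 1 gene, 932 several and 9160 were not listed in the annotation. Symbols were updated by gene ID (34754 of 34958 matched).

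limma 3.58.1 in R 4.3.3 (lmFit, eBayes, two-sided, 2 residual and 3.11 prior degrees of freedom) tested every probe set, with Benjamini-Hochberg adjustment. Probe sets were the unit because a choice of level class per gene can depend on diet. The fit was tested on simulated data. Every member was named, with all measured genes of the receptor list and the phagocyte oxidase list and up to 3 of smallest p elsewhere. Members and lists were chosen with earlier results of these data known. The number of arrays limits the precision. The deviations of same-numbered arrays from their diet means had r = -0.099 over all probe sets. With 2 arrays per diet this single value cannot tell whether the numbers pair samples.

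Alternatives were the replicate block, each array left out, other centring, values per gene, a level filter, an ordinary t statistic, robust eBayes and an adjusted p under 0.1. Quantile normalization and background correction need levels and were not run.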

Additional observations from a re-analysis of the deposited data

How the results depend on the processing

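The count of 676 probe sets passing over the whole array was 754 with arrays centred on their median and 619 with robust eBayes. It was 79 with the replicate block, though it is not known whether the numbers pair arrays. With arrays centred on the hybridization controls it was 3290, and among 28224 probe sets at level 4 or above it was 1429. The count was 1 by the ordinary t statistic and 1579 at an adjusted p under 0.1. It was 0 without any 1 array, where a lone array is taken to vary like the other diet. Of the members, 0 passed as designed, with the replicate block, without any 1 array, with arrays centred on their median, by the ordinary t statistic and by robust eBayes. With arrays centred on the hybridization controls 4 passed. As 1 value per gene, by either rule, 2 of 10 passed, and 2 of 14 passed at level 4 or above and 2 of 18 at an adjusted p under 0.1, in each case Csf3 and Ncf4. For the per-gene values and the level filter fewer features were tested.

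Over all alternatives the adjusted p ran from 0.0259 to 0.388 for Csf3 and from 0.0098 to 0.405 for Ncf4, with the sign kept. The signs that reversed belonged to small differences. After centring on hybridization controls the Csf1 probe sets 1448914_a_at, 1460220_a_at and 1425154_a_at were at 0.018, 0.046 and 0.13, and the Csf1r probe set 1423593_a_at at 0.15; as 1 value per gene Csf1r was at 0.14. Leaving out 1 array gave ranges of -0.10 to 0.0095 for Csf1 1425154_a_at, -0.084 to 0.035 for Csf1r 1423593_a_at, -0.018 to 0.41 for Cybb 1436779_at and -0.066 to 0.36 for Ptprc 1440165_at.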
